A study of Mus musculus with 12 samples.

Results

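The TRBJ1 cluster is a group of joining (J) genes in the mouse T cell receptor beta (TRB) locus, and its 6 genes TRBJ1-1 to TRBJ1-6 are described here as they appear in T cells of mammary tumours. Joins were taken from contigs that the deposited receptor table marks as belonging to a called cell, productive, of the TRB chain and with one of these J genes, in the libraries named CSF1R, CTX, CTX2, Combined, PBS2 and PBS1. All 6 genes were found, among 12 TRBJ genes in all. A clone was counted once per library as a TRBV gene with its CDR3 nucleotide sequence, which gave 3943 TRBJ1 clones of 10174 TRB clones, in 4068 of 10295 cells with a productive TRB chain. TRBJ1-1 made 1055 clones, TRBJ1-4 939, TRBJ1-3 663, TRBJ1-2 570, TRBJ1-6 390 and TRBJ1-5 326. A further gene of the cluster, TRBJ1-7, was called on 7 contigs, of which 0 were productive.

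The study sequenced CD45+ cells, the leukocytes, of mammary tumours from Balb/c mice, by single-cell RNA and T cell receptor sequencing. Treated mice had received cyclophosphamide, an alkylating chemotherapy, and pexidartinib, a kinase inhibitor that blocks the macrophage growth factor receptor CSF1R, over 3 weeks. CTX, CTX2 and Combined were tied by sample titles to receptor records marked treated, CSF1R by its index number to the treated group (2 expression records begin with it), and PBS1 by its index number to an expression record marked untreated. The 2 records of PBS2 disagree (treated for its receptor library, untreated for its expression library), so PBS2 was left out of the comparison by treatment and its values are given beside it. What CTX, CSF1R, Combined and PBS stand for as library names is not defined in the labels, which also do not give the genotype, the age, the tumour line or the mouse behind each library. P-values over libraries therefore measure the spread between these libraries, which may be partly technical.

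A beta chain is assembled in the thymus by joining a D gene to a J gene and then a V gene to that pair, while bases are trimmed from the gene ends and others are added at random. The stretch read across the join is the CDR3, the loop of the receptor that lies over the peptide. TRBD1 lies before the TRBJ1 genes, and TRBD2 lies after them and before the TRBJ2 genes, so deletion of the DNA in between can join TRBD1 to either cluster and TRBD2 to the TRBJ2 cluster.

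In the RefSeq gene table for GRCm38.p6, which describes another strain (C57BL/6J), TRBJ1-1 to TRBJ1-6 span chr6:41533864-41535606. TRBD1 lies 651 bases before TRBJ1-1, at chr6:41533201-41533212, and TRBD2 lies 6556 bases after TRBJ1-6, at chr6:41542163-41542176. All are gene segments of the locus and not exons of finished genes. The part of each J gene that enters the CDR3 was read from the clones themselves, as the commonest run of bases up to the end of the CDR3, and may include bases copied as a palindrome at the cut end. These ends are shown, 5′ to 3′ and in lower case, because their lengths and trimming are compared further on.
TRBJ1-1: gcaaacacagaagtcttcttt
TRBJ1-2: gcaaactccgactacaccttc
TRBJ1-3: aattctggaaatacgctctatttt
TRBJ1-4: tttccaacgaaagattatttttc
TRBJ1-5: ataacaaccaggctccgcttttt
TRBJ1-6: aattcctataattcgcccctctacttt

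The libraries differed widely in size. Combined held 7843 of the TRB clones, and the others held 879 (CSF1R), 395 (CTX), 514 (CTX2), 402 (PBS2) and 141 (PBS1). The median TRBJ1 contig had 4 to 18 unique molecular identifiers (UMIs), and the authors' high-confidence mark stood on 81.5% (CTX) to 98.6% (CTX2) of TRBJ1 contigs. Cells with more than 1 productive TRB chain made 23.7% of TRB cells in CTX and 22.9% in PBS2, against 4.79% in CTX2, and 409 cells over all libraries carried both a TRBJ1 and a TRBJ2 chain. Barcodes of called cells were seldom shared between libraries (50 of 11468, or 0.436%), and 7 of 3935 TRBJ1 nucleotide clones occurred in more than 1 library, 0 of them in the same barcode. TRBC1 was called on 4341 of the 4344 TRBJ1 contigs and on 7225 of the 7231 TRBJ2 contigs, so the constant-gene call did not separate the clusters.

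TRBJ2 genes made most TRB clones in each library and TRBJ1 genes the smaller share. TRBJ1 clones made 38.9% of TRB clones in CSF1R, 34.2% in CTX, 37.4% in CTX2, 39.1% in Combined, 36.6% in PBS2 and 42.6% in PBS1, a mean of 38.1% ± 2.82 (SD, n = 6 libraries). CTX was lowest and PBS1 highest, and the exact 95% binomial intervals of these 2 libraries overlapped, from 29.5 to 39.1% in CTX. Counted by cells instead of clones, with a cell of more than 1 TRB clone counted under each, the shares were 38.3, 30.2, 32.6, 39.0, 34.9 and 41.0% in the same order. Intervals here cover counting error only.

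TRBJ1-1 and TRBJ1-4 were used most and TRBJ1-5, TRBJ1-6 and TRBJ1-2 least. TRBJ1-1 made 9.79% ± 0.932 of TRB clones (SD, n = 6), between 8.51% in PBS1 and 11.1% in CSF1R. TRBJ1-4 made 8.80% ± 1.19, between 7.46% in PBS2 and 10.6% in PBS1, and overlapped TRBJ1-1 in its range over libraries. TRBJ1-3 followed with 6.50% ± 0.920. TRBJ1-2 made 4.75% ± 0.868, TRBJ1-6 4.48% ± 2.01 and TRBJ1-5 3.79% ± 0.942, and the ranges of these 3 genes overlapped. TRBJ1-6 had the widest spread: its share was 4.21% in CSF1R, 3.54% in CTX, 3.89% in CTX2, 3.76% in Combined, 2.99% in PBS2 and 8.51% in PBS1. PBS1 stood above the other libraries, but on 12 of 141 clones, with an exact interval of 4.48 to 14.4%. The order of use was thus not the order along the chromosome, where TRBJ1-4 lies next to TRBJ1-5.

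**Figure D1:**
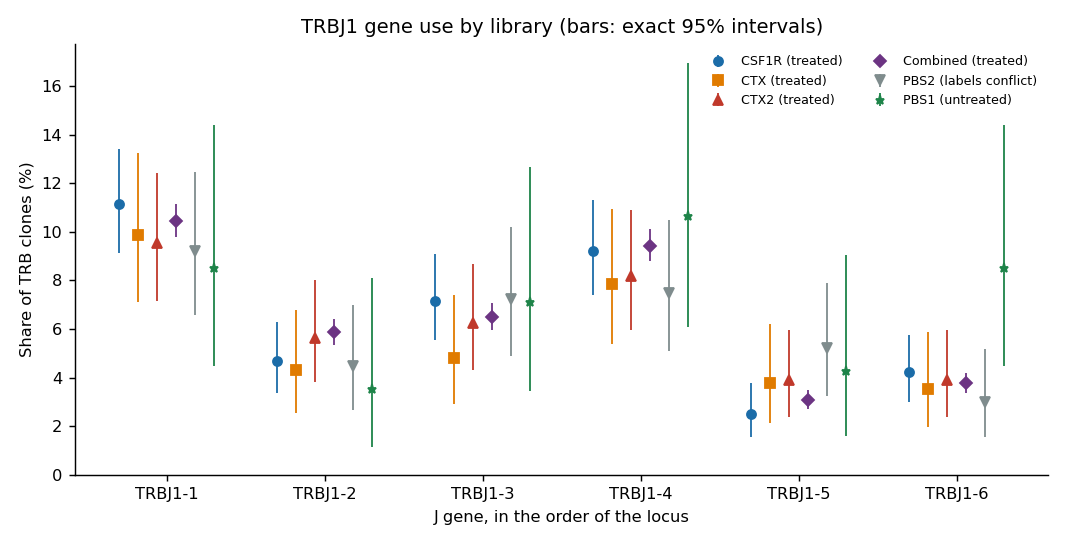
Share of TRB clones (%, y axis) with each TRBJ1 gene (x axis, in the order of the locus) in the 6 libraries, with exact 95% binomial intervals as bars. TRBJ1-1 sits between 8.51 and 11.1%, and the TRBJ1-6 point of PBS1 lies at 8.51% while the other libraries lie between 2.99 and 4.21%.

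No TRBJ1 gene passed the test for a difference by treatment, in a comparison that could not have passed a threshold of 0.05 with 1 untreated library. TRBJ1 clones made 38.9, 34.2, 37.4 and 39.1% of clones in the 4 treated libraries, against 42.6% in the untreated PBS1, a difference of -5.17 percentage points (two-sided exact permutation test, p = 0.4, where 0.2 is the smallest p that 4 libraries against 1 allow). The difference was -2.17 points with PBS2 counted as untreated, and -8.67 points without cells with more than 1 productive TRB chain. PBS1 lay above the 4 treated libraries, and PBS2, with 36.6%, lay within their range. Among single genes the difference, treated minus untreated, was 1.74 points for TRBJ1-1, 1.57 for TRBJ1-2, -0.916 for TRBJ1-3, -1.97 for TRBJ1-4, -0.936 for TRBJ1-5 and -4.66 for TRBJ1-6. Of the 12 TRBJ genes, 0 (0%) were called at an adjusted p of 0.05, and 0 at an unadjusted one, by the exact permutation test with Benjamini-Hochberg adjustment. The TRBJ1-6 difference of -4.66 points rests on the 12 PBS1 clones, and its adjusted p by the exact permutation test was 0.48.

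The strongest contrast between the clusters was in their D genes. TRBD2 was called in 7.17% (CSF1R), 12.5% (CTX), 7.69% (CTX2), 7.68% (Combined), 13.1% (PBS2) and 7.89% (PBS1) of TRBJ1 clones with a D call. Among TRBJ2 clones TRBD2 was called in 57.1, 50.3, 53.4, 55.1, 54.0 and 68.8% in the same order. The clusters did not overlap in any library: TRBJ1 averaged 9.34% ± 2.71 and TRBJ2 56.4% ± 6.44 (SD, n = 6 libraries). The difference of -47.1 points ± 8.08 was negative in 6 of 6 libraries (two-sided exact sign-flip permutation test, p = 0.03125, the smallest that 6 libraries allow, and 0.0625 after Benjamini-Hochberg adjustment over 6 contrasts between the clusters or within them). It was -46.6 points in the libraries with JR-numbered titles (CTX2 and Combined) and -47.3 points in the others. Joining by deletion places TRBD2 before TRBJ2 genes only, so the order of the genes set this direction in advance. The p-value is therefore a check on the D calls and no separate finding.

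The bases themselves separated these calls further. Both D genes are short and rich in G, and a call can rest on a few bases, so the CDR3 bases between the V and J ends were searched, on the coding strand, for GACAGGG and CTGGGGG. These are the 7-base words that marked TRBD1 and TRBD2 calls among TRBJ2 clones, and both include a run of G. GACAGGG was present in 31.5% of 2532 TRBJ1 clones called TRBD1, against 29.9% of 2195 TRBJ2 clones called TRBD1. CTGGGGG was present in 3 of 220 TRBJ1 clones called TRBD2 (1.36%), against 1360 of 2697 TRBJ2 clones called TRBD2 (50.4%). Over all clones with both ends read, whatever the call, CTGGGGG was in 3 of 3918 TRBJ1 clones (0.0766%), against 1364 of 6187 TRBJ2 clones (22.0%), and GACAGGG was in 800 TRBJ1 clones (20.4%), against 659 TRBJ2 clones (10.7%). Few TRBD2 calls of TRBJ1 clones thus held the word found in many TRBD2 calls of TRBJ2 clones. The words were chosen on the TRBJ2 clones, so that their shares there are a description.

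**Figure D2:**
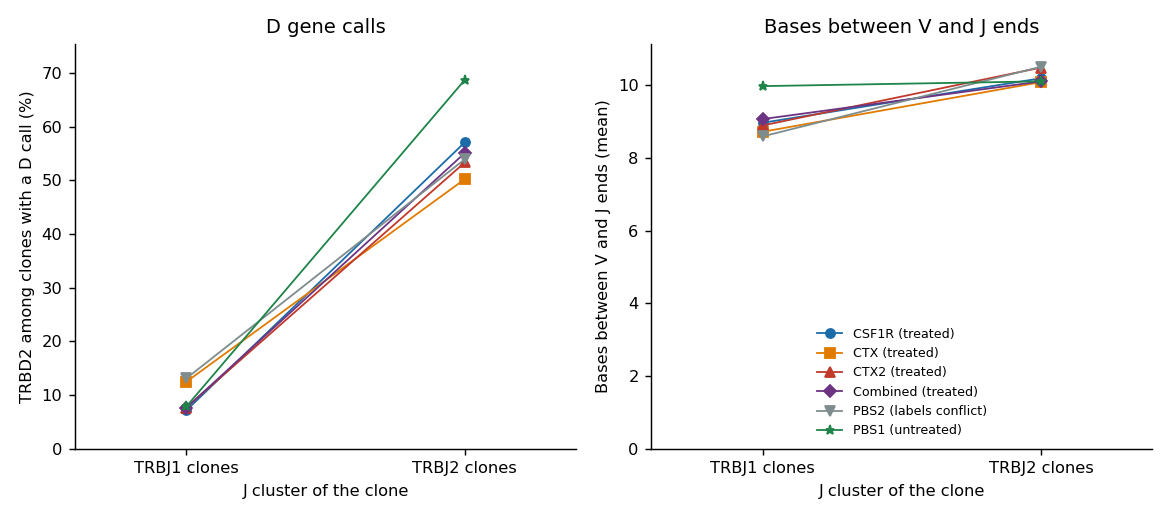
Left, TRBD2 share (%) of clones with a D call; right, mean bases between the V and J ends of the CDR3; both for TRBJ1 and TRBJ2 clones (x axis), with 1 line per library. Every line rises in the left panel, with TRBJ1 at 7.17 to 13.1% and TRBJ2 at 50.3 to 68.8%, and in the right panel the TRBJ1 points lie at 8.60 to 9.98 bases.

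TRBJ1 joins also held fewer bases between the V and J ends, the stretch that carries the D remnant and the added bases. The mean was 8.97 (CSF1R), 8.73 (CTX), 8.90 (CTX2), 9.08 (Combined), 8.60 (PBS2) and 9.98 bases (PBS1) in TRBJ1 clones, against 10.2, 10.1, 10.5, 10.1, 10.5 and 10.1 bases in TRBJ2 clones. TRBJ1 was lower in 6 of 6 libraries, with a difference of -0.131 bases in PBS1 and of -1.92 to -1.04 bases in the others. The mean difference was -1.21 bases ± 0.611 (SD, n = 6; two-sided exact sign-flip permutation test, p = 0.03125, adjusted p = 0.0625). It was -1.32 bases in the JR-numbered libraries and -1.16 in the others. In the RefSeq gene table TRBD1 has 12 bases and TRBD2 14, and joining by deletion places TRBD2 before TRBJ2 genes only. This contrast is thus not separate from that of the D calls, and how much the D lengths add to it was not tested.

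The difference in bases moved with the D calls. No D gene was called in 31.8% ± 2.81 of TRBJ1 clones and 20.6% ± 2.17 of TRBJ2 clones (SD, n = 6 libraries). Clones called TRBD1 held 10.4 ± 0.259 bases between the ends with a TRBJ1 gene and 10.6 ± 0.506 with a TRBJ2 gene, while clones called TRBD2 held 9.76 ± 1.18 with a TRBJ1 gene and 12.1 ± 0.282 with a TRBJ2 gene. Clones with no D call held 6.13 ± 1.11 with a TRBJ1 gene and 5.78 ± 0.522 with a TRBJ2 gene. Within clones called TRBD1, a comparison added after the values were seen, the difference between clusters was -0.147 bases (two-sided exact sign-flip permutation test, p = 0.594). The differences within the other D classes were not tested. A D call is made from these same bases, so the classes are not independent of the number of bases. A comparison within a class therefore cannot separate the D call from that number.

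CDR3 loops of the whole TRBJ1 cluster were about as long as those of TRBJ2, while its genes differed among themselves. The mean CDR3 length was 41.2, 41.2, 40.7, 41.2 and 40.7 bases in TRBJ1 clones of CSF1R, CTX, CTX2, Combined and PBS2, and 42.4 bases in PBS1. TRBJ2 clones had 41.4, 41.4, 41.6, 41.5, 41.3 and 40.9 bases in the same order. PBS1 differed by 1.51 bases and the other 5 libraries by -0.943 to -0.192 bases, so that the mean difference was -0.124 bases ± 0.852 (two-sided exact sign-flip permutation test, p = 0.75, adjusted p = 0.75). Without PBS1 it was -0.451 bases.

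By the mean of the 6 libraries, each weighted equally, TRBJ1-1 gave the shortest loops of the cluster and TRBJ1-3 and TRBJ1-4 the longest. TRBJ1-1 clones averaged 39.6 (CSF1R), 40.4 (CTX), 38.4 (CTX2), 39.5 (Combined), 38.9 (PBS2) and 40.5 bases (PBS1). TRBJ1-3 clones averaged 42.9, 42.3, 42.1, 42.4, 41.1 and 45.6 bases, and TRBJ1-4 clones 41.5, 41.5, 42.8, 42.6, 42.4 and 43.8 bases. In each library TRBJ1-1 lay below both. TRBJ1-6 clones averaged 42.0, 40.9, 41.3, 42.7, 41.3 and 40.5 bases in the same order, which was above TRBJ1-3 and TRBJ1-4 in Combined, the largest library, and above TRBJ1-4 in CSF1R. Against all other TRB clones of the same library, TRBJ1-1 was shorter by a mean difference of -1.96 bases ± 0.798 and TRBJ1-2 by -0.627 ± 0.454, each in 6 of 6 libraries. TRBJ1-3 was longer by 1.52 ± 1.50 and TRBJ1-4 by 1.23 ± 0.905, also in 6 of 6. The TRBJ1-3 value was 0.947 bases without PBS1. With medians in place of means the differences were -1.25 bases for TRBJ1-2, 0 for TRBJ1-3 and 0.75 for TRBJ1-4. With clones weighted by their cells they were -0.33 for TRBJ1-2 and 2 for TRBJ1-4.

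Those 4 genes had p = 0.03125 by the two-sided exact sign-flip permutation test, and 0.0536 after adjustment over the 12 TRBJ genes, so that 0 passed at an adjusted 0.05. Of all 12 genes, 7 (58.3%) passed at an unadjusted 0.05, a share that the 4 of 6 TRBJ1 genes have to be read against. TRBJ1-5 (-0.399 bases ± 0.940) and TRBJ1-6 (0.117 ± 0.857) had no common direction over libraries. The commonest loop had 13 residues with TRBJ1-1 and TRBJ1-2, 14 with TRBJ1-3 and TRBJ1-5, and 15 with TRBJ1-4 and TRBJ1-6. Loops of 11 or fewer residues made 12.0% ± 4.79 of TRBJ1-1 clones, against 3.02% ± 1.69 of TRBJ1-4 clones.

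**Figure D3:**
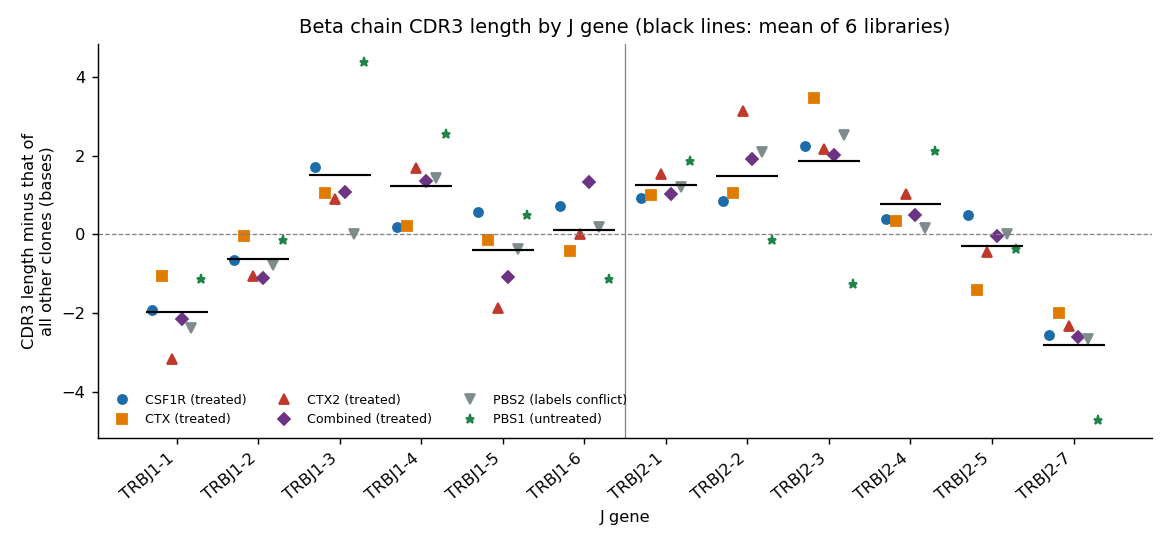
Mean CDR3 length of the clones with each TRBJ gene minus that of all other TRB clones of the library (bases, y axis), by J gene (x axis, TRBJ1 left of the vertical line), with 1 point per library and the mean of 6 as a black line. TRBJ1-1 lies below 0 and TRBJ1-3 and TRBJ1-4 at or above 0 in each library.

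The J ends printed above differ in length and in how much of them was kept. TRBJ1-1 and TRBJ1-2 bring 21 bases, of which clones kept 17.6 and 18.5 on average. TRBJ1-3 brings 24 and TRBJ1-4 23, with 21.0 and 19.9 kept. TRBJ1-5 brings 23 and kept 18.6. TRBJ1-6 brings the longest end of the cluster, 27 bases, and lost 6.14 of them on average, so that it kept 20.9, close to TRBJ1-3. The end was kept whole in 6.67% of TRBJ1-6 clones, against 15.0 to 25.6% for the other 5 genes. Within the cluster, the 2 genes with the shortest ends were also those whose loops were shorter than the rest in 6 of 6 libraries. The same order did not hold among the TRBJ2 genes. TRBJ2-1, also with an end of 21 bases, was longer than the rest by a mean difference of 1.27 bases in 6 of 6 libraries. TRBJ2-7, with an end of 26 bases, differed by -2.80 bases, lower in 6 of 6. A link between end length and loop length was not tested. TRBJ1-6, with the longest end and the most bases missing, gave the longest loops of the cluster in Combined but not in the other 5 libraries.

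TRBJ1 joins used the common V genes of the repertoire. TRBV13-2, TRBV13-1 and TRBV19 were the 3 most frequent partners, with 14.5% ± 2.84, 12.5% ± 2.56 and 11.4% ± 2.70 of TRBJ1 clones, against 14.9% ± 1.59, 10.1% ± 2.82 and 10.1% ± 1.52 of TRBJ2 clones (SD, n = 6 libraries). By gene, and by the mean over libraries, TRBV13-2 led with TRBJ1-4 (16.8% ± 6.91), TRBJ1-5 (16.0% ± 11.3) and TRBJ1-6 (15.1% ± 11.3). TRBV13-1 led with TRBJ1-1 (17.9% ± 5.46), before TRBV5 (12.3% ± 6.95) and TRBV19 (10.6% ± 3.11). TRBV19 led with TRBJ1-3 (15.3% ± 9.04), where TRBV13-2 was next to it (15.2% ± 4.88), and TRBV31, the only V gene that lies downstream of the J clusters in the reverse orientation, led with TRBJ1-2 (12.7% ± 5.81). The TRBV31 lead rests on equal weights: of all TRBJ1-2 clones pooled, 57 used TRBV31, against 70 with TRBV20, 63 with TRBV13-1 and 62 with TRBV13-2, and in Combined TRBV31 made 9.57% and TRBV20 12.6% of them. For TRBJ1-3 too, the pooled clones gave TRBV13-2 (92) before TRBV19 (83). These partner shares spread so widely over libraries, most of all in PBS1 with 5 TRBJ1-2 clones, that neighbouring ranks did not differ beyond their spread.

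Seen from the V side, 14 TRBV genes made at least 2% of clones on average. TRBV20 had the highest mean TRBJ1 share over libraries, at 43.9% (CSF1R), 46.7% (CTX), 50% (CTX2), 44.0% (Combined), 40.9% (PBS2) and 44.4% (PBS1), a mean of 45.0% ± 3.07. It was above all other clones of its library in 6 of 6, by 7.25 points ± 4.69, as was TRBV13-1, with 43.9% ± 7.28 and 6.43 points ± 5.35. TRBV29 was second by its mean (44.1% ± 12.4), with PBS2 low at 22.7%. In no single library was TRBV20 alone at the top: TRBV29 was higher in CSF1R (51.2%), Combined (46.4%) and PBS1 (57.1%) and equal in CTX2, TRBV31 was higher in CTX (50%) and TRBV14 in PBS2 (46.2%). The lowest means were those of TRBV17 (20.7% ± 19.4), TRBV3 (23.4% ± 8.86) and TRBV14 (31.8% ± 12.0). In Combined, where counts were largest, 29 of 132 TRBV3 clones used TRBJ1 (22.0%, exact 95% interval 15.2 to 30.0%), and TRBV3 was lower than the other clones in 5 of 6 libraries, with a mean difference of -15.0 points ± 8.66. By the two-sided exact sign-flip permutation test TRBV20 and TRBV13-1 had p = 0.03125 and an adjusted p of 0.219, and TRBV3 had p = 0.0625 and 0.292. Of the 14 V genes 2 (14.3%) passed at an unadjusted 0.05 and 0 (0%) after adjustment.

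**Figure D4:**
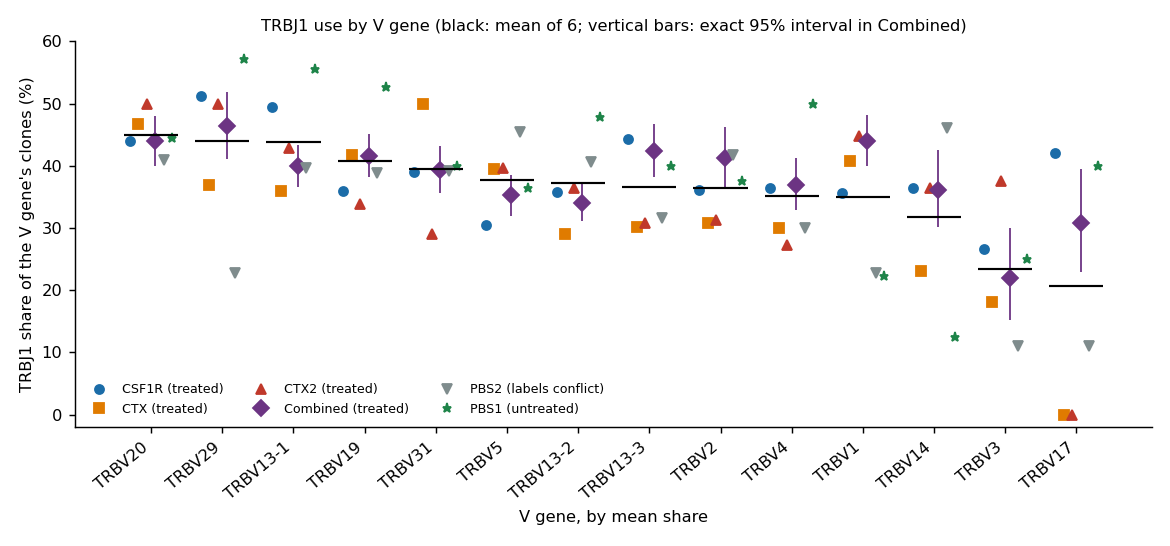
TRBJ1 share of the clones of each V gene (%, y axis), with V genes ordered by mean share (x axis), 1 point per library, the mean of 6 as a black line and the exact 95% interval of Combined as a vertical bar. TRBV20 runs from 40.9 to 50%, and TRBV3 in Combined lies at 22.0%.

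Rearrangements that cannot make a protein show J use without the demand for a working chain. Among nonproductive TRB rearrangements 181 of 373 used TRBJ1 over all libraries. By library, productive rearrangements used TRBJ1 in 38.9% (CSF1R), 34.2% (CTX), 37.4% (CTX2), 39.1% (Combined), 36.6% (PBS2) and 42.6% (PBS1), against 42.9, 51.9, 50, 49.4, 58.8 and 28.6% of nonproductive ones. Productive ones were lower in 5 libraries and higher in PBS1, where 4 of 14 nonproductive rearrangements used TRBJ1. The mean difference was -8.81 points ± 12.8 (two-sided exact sign-flip permutation test, p = 0.156, adjusted p = 0.188). Without PBS1 it was -13.4 points (p = 0.0625, the smallest that 5 libraries allow in this exact test). Combined alone held 127 of 257, or 49.4% with an exact interval of 43.1 to 55.7%. With high-confidence contigs only, the mean difference turned to 2.08 points, with 0 of 6 nonproductive rearrangements of PBS1 on TRBJ1 (exact upper bound 45.9%) and 57.1% in Combined. That filter kept 132 of the 373 nonproductive rearrangements, 84 of them in Combined. Pooled over libraries, 65 of the 132 used TRBJ1 (49.2%), against 38.4% of 9834 productive ones.

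Within the cluster the mean differences of TRBJ1-2 and TRBJ1-5 lay furthest below 0. TRBJ1-2 made 5.87% of productive and 14.8% of nonproductive rearrangements in Combined (38 of 257, exact interval 10.7 to 19.7%), and its mean difference over libraries was -8.28 points ± 12.1, with 4 libraries lower and 2 higher. TRBJ1-5 made 3.09% of productive and 7.78% of nonproductive ones in Combined, and was lower among productive ones in 6 of 6 libraries, by a mean difference of -3.94 points ± 3.28. Outside Combined this direction rests on 1 or 2 nonproductive TRBJ1-5 rearrangements a library. They were 2 of 42 (CSF1R), 2 of 27 (CTX), 1 of 16 (CTX2), 1 of 17 (PBS2) and 2 of 14 (PBS1). By the two-sided exact sign-flip permutation test p was 0.125 for TRBJ1-2 and 0.03125 for TRBJ1-5, both with an adjusted p of 0.375. TRBJ1-5 was the 1 of 12 TRBJ genes (8.33%) that passed unadjusted, and with high-confidence contigs only its difference was 0.205 points. The TRBJ1-2 difference was -3.77 points without PBS2.

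Most TRBJ1 clones were seen in 1 cell. Clones of at least 2 cells used TRBJ1 in 26.7% (CSF1R), 27.3% (CTX), 34.5% (CTX2), 36.7% (Combined), 33.3% (PBS2) and 46.2% (PBS1), against 39.1, 35.0, 37.7, 39.1, 36.7 and 42.2% of single-cell clones. The mean difference was -4.22 points ± 5.52, with PBS1 the only library above 0 (two-sided exact sign-flip permutation test, p = 0.156, adjusted p = 0.188). It was -12.7 points with expanded clones taken at 3 or more cells (p = 0.125 by the same exact test) and -2.57 points without CSF1R. Over all libraries 69 of 205 expanded clones and 3874 of 9969 single-cell clones were TRBJ1. Of the 12 TRBJ genes 0 (0%) passed at 0.05, adjusted or not, by the same test.

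Most large clones, whatever their J gene, came from CTX2. Clones of 10 or more cells numbered 21, of which 14 were in CTX2. Of the 21, 7 used TRBJ1 with 173 cells, and 5 of those 7 were in CTX2. There, TRBJ1-6 made 3.89% of clones but 8.70% of cells and TRBJ1-5 3.89% of clones and 5.68% of cells, while the other 4 genes had a lower share of cells than of clones. Cells per clone were 4.9 for TRBJ1-6 and 3.2 for TRBJ1-5 in CTX2, and between 1 and 1.57 for these 2 genes in the other libraries.

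**Figure D5:**
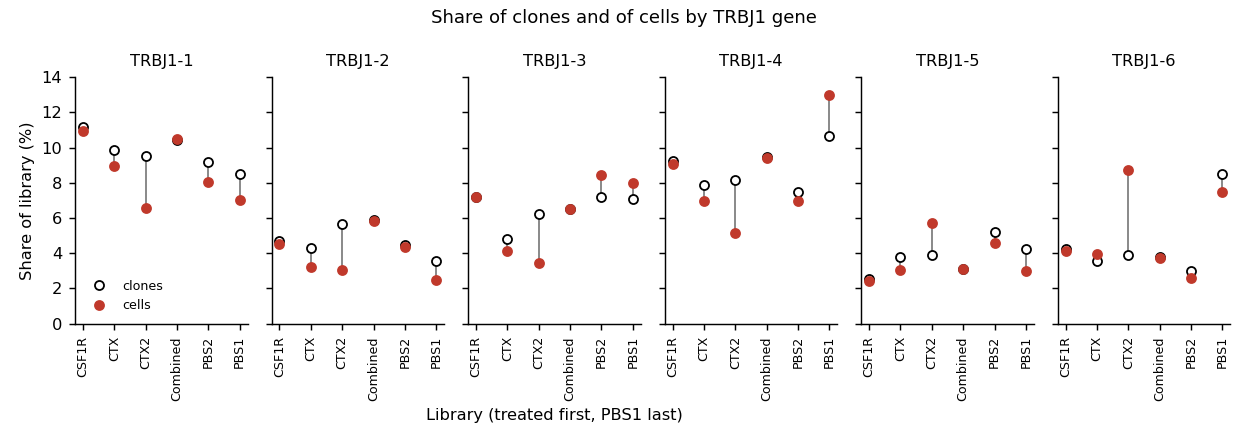
Share of the library's TRB clones (open circles) and cells (filled circles) with each TRBJ1 gene (%, y axis), by library (x axis, treated first and PBS1 last). In CTX2 the TRBJ1-6 points stand apart, at 3.89% of clones and 8.70% of cells, and the TRBJ1-1 cells lie below the clones.

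The largest clone of each gene is shown by its CDR3, 5′ to 3′, with the bases that match the J end in capitals. The TRB locus is on chromosome 6. They are shown because those of TRBJ1-6 and TRBJ1-5 hold 59 of 98 and 42 of 64 cells with these genes in CTX2, and because a pair of them is compared further on.
TRBJ1-6 with TRBV13-2, CTX2: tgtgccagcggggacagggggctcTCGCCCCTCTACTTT
TRBJ1-5 with TRBV14, CTX2: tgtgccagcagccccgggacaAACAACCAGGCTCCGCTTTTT
TRBJ1-1 with TRBV13-2, CTX2: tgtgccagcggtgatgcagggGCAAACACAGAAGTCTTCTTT
TRBJ1-2 with TRBV13-2, CTX2: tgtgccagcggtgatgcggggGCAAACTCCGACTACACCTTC
TRBJ1-3 with TRBV20, PBS1: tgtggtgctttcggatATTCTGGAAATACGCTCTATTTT
The TRBJ1-6 clone (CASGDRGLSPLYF) was found in 59 of 1085 TRB cells of CTX2 (5.44%, exact 95% interval 4.16 to 6.96%), and 56 of its 58 cells with an alpha chain carried the same one, of TRAV7-4 and TRAJ49. It kept 15 bases of TRBJ1-6. The TRBJ1-5 clone (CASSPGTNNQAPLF) had 42 cells, of which 39 of 40 with an alpha chain shared it. The TRBJ1-1 clone had 15 cells, the TRBJ1-2 clone 5 and the TRBJ1-3 clone (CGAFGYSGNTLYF) 7. The largest TRBJ1-4 clone used TRBV13-3 in 15 cells of CTX2.

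Elsewhere the leading TRBJ1 clone was smaller. It had 2 cells in CSF1R (TRBJ1-4 with TRBV13-1), 11 in CTX (TRBJ1-1 with TRBV1, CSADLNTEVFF), 4 in Combined (TRBJ1-4 with TRBV5), 7 in PBS2 (TRBJ1-3 with TRBV14, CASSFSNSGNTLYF) and 12 in PBS1 (TRBJ1-4 with TRBV13-2). In PBS1 those 12 cells were 6.25% of 192 TRB cells, with an exact interval of 3.27 to 10.7%.

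The TRBJ1-1 and TRBJ1-2 clones of CTX2 with TRBV13-2 had an alpha CDR3 in common, a relation found after the values were seen. All 15 cells of the first and all 5 of the second carried a chain of TRAV7D-2 and TRAJ22 with the CDR3 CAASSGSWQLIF. The main alpha chain of 4 further TRBV13-2 clones, which used TRBJ2-4, had the same TRAJ gene and CDR3. Its V gene was called TRAV7-1 in those clones, so the match is in TRAJ22 and the CDR3 and not in the V call. The alpha CDR3 nucleotides of the TRBJ1-1 clone were also those of the TRBJ2-4 clones of 7 and 4 cells. Those of the TRBJ1-2 clone were also the main ones of the TRBJ2-4 clone of 86 cells. The TRBJ2-4 clone of 56 cells had another nucleotide version. The nucleotides of the alpha CDR3 (chromosome 14) were not the same in the 2 TRBJ1 clones.
With the TRBJ1-1 clone: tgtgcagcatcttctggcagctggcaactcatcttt
With the TRBJ1-2 clone: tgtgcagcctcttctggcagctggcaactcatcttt
Over CTX2, 182 cells carried this alpha CDR3, in 4 nucleotide versions, of which 166 were in the 6 clones and 16 among 878 other cells with an alpha chain. Both TRBJ1 beta CDR3s, printed above, kept 17 bases of TRBV13-2 and all 21 bases of their J end, with 4 bases in between.

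A second alpha CDR3 was found in 77 cells of CTX2, Combined, PBS2 and PBS1, in 3 nucleotide versions. In the TRBJ1-3 clones of CTX2 and PBS2 named below its chain was of TRAV12-1 and TRAJ45. Of the 77 cells 76 used TRBV14, against 3.79% of 8348 other cells. Cells of a clone are not independent, and 44 of the 76 were in a single CTX2 clone and 15 in a single PBS1 clone. The alpha CDR3 was paired with 7 TRBV14 clones, of which 3 used TRBJ1: TRBJ1-3 in CTX2 (4 cells), TRBJ1-1 in Combined (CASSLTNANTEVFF, 1 cell) and TRBJ1-3 in PBS2 (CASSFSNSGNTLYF, 4 cells). A pair of the 7, the TRBJ2-4 clones of PBS1 with 15 cells and 1 cell, differed at 1 base and had the same alpha nucleotides. They may thus not be separate clones, which was not tested. This alpha CDR3 was also chosen after the values were seen. In CTX, each of the 8 cells of a TRBJ1-4 clone with TRBV4 also carried a second productive beta chain, of TRBV13-2 and TRBJ2-1. The 21 TRBJ1 clones of 3 or more cells with an alpha chain were compared with all other clones of that size in their library. In 4, the TRAJ gene and CDR3 of the main alpha chain were also those of another clone, with any TRBJ gene. These 4 were the TRBJ1-1 and TRBJ1-2 clones of CTX2 above, the TRBV4 clone of CTX and the TRBV14 clone of CTX2. The match of the TRBV14 clone was a TRBJ2-3 clone. The match of the TRBV4 clone was the TRBJ2-1 chain of the same 8 cells, 4 of which carried that alpha chain. It is thus the same cells counted under 2 beta chains and no separate clone. Sharing was not counted for the 51 TRBJ2 clones of that size with an alpha chain, so the clusters cannot be compared in it.

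Few TRBJ1 receptors recurred between libraries. The same TRBV gene, TRBJ1 gene and CDR3 amino acids were found in more than 1 library for 31 of 3889 sequences (0.797%), against 49 of 6120 for TRBJ2 (0.801%). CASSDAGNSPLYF, of TRBV13-1 and TRBJ1-6, was in CSF1R, PBS2 and PBS1, with 3 nucleotide versions in 3 cells. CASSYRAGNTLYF, of TRBV4 and TRBJ1-3, was in CSF1R, CTX and Combined, with 1 nucleotide version. The next were ordered by libraries, then nucleotide versions, then cells. They were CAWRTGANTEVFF (TRBV31 and TRBJ1-1, in CTX and CTX2) and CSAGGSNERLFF (TRBV1 and TRBJ1-4, in CTX2 and Combined). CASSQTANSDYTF (TRBV2 and TRBJ1-2, in CSF1R and Combined) followed, and each of these had 2 nucleotide versions. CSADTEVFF (TRBV1 and TRBJ1-1, in CTX2 and Combined) had 1 nucleotide version and 3 cells, as many cells as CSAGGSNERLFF and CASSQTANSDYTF.

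The difference between the clusters in the share of clones found with a productive alpha chain did not pass an adjusted 0.05. The share was 80.7% (CSF1R), 86.7% (CTX), 84.4% (CTX2), 78.9% (Combined), 86.4% (PBS2) and 85.0% (PBS1) for TRBJ1 clones, against 81.4, 89.6, 86.3, 81.5, 87.8 and 90.1% for TRBJ2 clones. The TRBJ1 share was the smaller one in 6 of 6 libraries, by a mean difference of -2.45 points ± 1.54 (two-sided exact sign-flip permutation test, p = 0.03125, adjusted p = 0.0625). Without cells with more than 1 productive TRB chain the difference was -1.23 points (exact p = 0.1875), and with contigs of at least 2 UMIs it was -4.92 points (exact p = 0.0625).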

How the data were processed

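Receptor libraries were made from CD45+ cells of mammary tumours with a 10x Genomics mouse T cell V(D)J kit, per the labels' protocols. Cell Ranger 3.0.2 and the builds mm10 and GRCm38 are named in the submitters' processing notes. The authors deposited 1 table of contigs for 11 library names, with raw read counts and UMI counts per contig, contig lengths in bases, gene calls, and marks for called cells, productive and high-confidence contigs. Of these names 6 were tied to samples; the other 5 were not used. The 6 libraries held 311634692 reads and 213458 UMIs in 11518 called cells (245 to 7629 a library).

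From these, all productive TRB contigs of called cells were taken, whatever their UMI count, and clones, shares and CDR3 lengths were computed with Python 3.11.15, pandas 2.3.3 and scipy 1.17.1. V and J ends were extended from the CDR3 end while at least 0.5 of at least 20 matching sequences had the same next base. Clones of at least 2 cells were called expanded. Intervals are exact (Clopper-Pearson) at 95%; reads and UMIs were not used as replicates. Tests were two-sided exact permutations over libraries with Benjamini-Hochberg adjustment over 12 TRBJ genes, 14 TRBV genes or 6 cluster contrasts, and were tested on simulated data. Members, V gene rules and contrasts were chosen with earlier results of these data known. The leading partner by mean share was named for each gene, and the top 3 for the whole cluster and TRBJ1-1. For TRBJ1-2 and TRBJ1-3, some further partners were named by mean share or pooled clones. Also named were the 3 V genes with the highest and lowest TRBJ1 share, the largest clones, and up to 6 CDR3s found in the most libraries. CDR3s of 15 or more residues are not spelled out.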

Additional observations from a re-analysis of the deposited data

Results flagged for a closer look

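In the 4 treated libraries, 5 of 56 sets of values had 1 library far from the others, by a rule that chance meets in about 1 set in 20. TRBJ1-6 had 4.9 cells per clone and 8.70% of cells in CTX2, above CSF1R, CTX and Combined. TRBJ1-5 had 3.2 cells per clone in CTX2, where its clone of 42 cells lies. The mean CDR3 length of TRBJ1 clones was 40.7 bases in CTX2, below the other treated libraries. TRBD2 made 12.5% of D calls of TRBJ1 clones in CTX, above the other treated libraries, and PBS2, outside that set, had 13.1%.

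PBS1, the only untreated library, lay on the other side of 0 from the 4 treated libraries in 3 contrasts, and these differences between treated and untreated were not tested. Its TRBJ1 share was higher in productive than in nonproductive rearrangements, by 13.98 points. Its TRBJ1 share was 3.97 points higher in expanded than in single-cell clones. Its TRBJ1 clones had CDR3s 1.51 bases longer than its TRBJ2 clones. PBS1 gave 60 TRBJ1 clones, 13 expanded clones and 14 nonproductive rearrangements to these values.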

How the results depend on the processing

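No paired analysis was possible because no replicate numbers tie one library to another. TRBD2 calls stayed lower with TRBJ1 under every alternative tried: by -46.6 points (JR-numbered libraries) and -47.3 (the others), too few libraries to pass, and from -48.9 to -44.3 leaving out 1 library. Bases between the V and J ends differed by -1.24 (only the top contig of a cell), -1.26 (high-confidence), -0.969 (no cell with 2 TRB chains), -1.32 (JR-numbered), -1.16 (others), -0.147 (TRBD1-called clones) and -1.43 to -1.07 (1 library left out), each with p above 0.05. The alpha chain difference was -1.23 points without cells with 2 TRB chains, -4.92 with at least 2 UMIs, and -2.81 to -1.92 with 1 library left out. With 5 libraries the exact test cannot go below 0.0625.

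Of the values that crossed 0, TRBJ1-5 productive minus nonproductive had passed an unadjusted 0.05 as reported (adjusted p = 0.375, exact permutation test). The others had passed neither; the cause was not tested. Productive minus nonproductive became 2.08 points with high-confidence contigs. The CDR3 length difference became 0.174 bases with clones weighted by their cells and 0.119 outside the JR-numbered libraries. It ran from -0.451 to 0.0403 leaving out 1 library. For single genes: TRBJ1-5 by treatment, 0.556 points by cells; TRBJ1-5 productive minus nonproductive, 0.205 (high-confidence); TRBJ1-1 likewise, -0.0046 (at least 2 UMIs) and -1.36 to 2.33 (1 library left out); TRBJ1-6 likewise, -3.38 to 0.579. TRBJ1-1 expanded minus single-cell was 0.769 without cells with 2 TRB chains and -2.33 to 1.17 leaving out 1 library; TRBJ1-6 was -0.124 with expanded at 3 cells and -1.33 to 1.04. The TRBJ1-5 length difference was 0.0507 by cells; that of TRBJ1-6 was -0.0862 without cells with 2 TRB chains, -0.282 by cells, -0.25 by medians and -0.125 to 0.366. PBS1, with 141 clones, limits every comparison by treatment.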

Other observations

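TRB contigs of called cells with a J gene but no V gene, outside every comparison above, used TRBJ1 in 27.1% (CSF1R), 36.2% (CTX), 48.2% (CTX2), 26.3% (Combined), 39.4% (PBS2) and 36.3% (PBS1), or 1352 of 3962 in all (34.1%). CTX2 was highest, with a median of 7 UMIs per such contig, against 2 in the other libraries. TRBJ1-1 made 21.7% of them in CTX2 and 5.80% in Combined, where TRBJ1-2 made 15.7%.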
